A study of Mus musculus with 25 samples.

Results

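Messenger RNA levels of 2 families of splicing regulators were followed through spermatogenesis, from sorted spermatogonia to spermatids, and across 4 genotypes of whole mouse testis. The members were every gene symbol made of Srsf and digits, the serine/arginine-rich (SR) proteins, and every symbol starting with Hnrnp, the heterogeneous nuclear ribonucleoproteins (hnRNPs), with symbols holding -ps left out. The rule found 31 genes, 11 SR and 20 hnRNP, among the 29244 symbols of the tables, and left out 1. SR proteins bind exonic enhancer sequences in nascent transcripts through RNA recognition motifs and recruit the spliceosome through domains rich in arginine and serine, and hnRNPs coat nascent RNA and often oppose them, so that the balance between the families sets which exons are kept. Both families also act in RNA export, stability and translation. Testis is known for a very wide range of alternative splicing, and transcription is shut off when spermatids elongate and pack their chromatin.

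The assay was Drop-seq, which pairs single cells with barcoded beads in droplets and tells captured transcripts apart by a random tag, the unique molecular identifier (UMI), next to their 3′ ends. The 25 libraries held 48642 barcodes and 65063387 UMIs, and 430 of the 48081 barcode sequences occurred in more than 1 library. All mice were male. The 21 whole-testis libraries held 357235 to 9745302 UMIs each. Wild-type testes (11 libraries, 3 to 9 months old) came from C57BL/6 mice, and testes labelled Mlh3-/- (6 libraries, 2 to 8 months) and Cul4a-/- (2 libraries, labelled 1 month and 18 or 21 days) from mice of B6;129 background, so that genotype and strain background cannot be told apart. The study's methods write the background of the Mlh3 line as B6.129 and that of Cul4a as B6;129. Mlh3 encodes a meiotic mismatch-repair protein needed for crossovers, and Cul4a a scaffold of ubiquitin ligases. CNP eGFP BAC TRAP mice (2 libraries, C57BL/6, labelled 2 months and 14 or 16 days) carry a transgene for a tagged ribosomal protein under the control of Cnp, a gene known from myelinating glia. The study's sample list gives the ages of the Cul4a and the CNP mice the other way round. Mlh3 replicates 2 and 3 are both labelled 8 months and 30 days old, and whether they came from 1 mouse was not tested. The tests between strains treat each library as independent. Sorted spermatogonia came from the pooled testes of 5 litter mates that were 7 days old and carried the reporter labelled Pouf51-EGFP, Pou5f1-EGFP in the study's methods, and were taken by their green fluorescence. Their background is C57BL/6 in the labels and B6;CBA in the study's methods. Primary spermatocytes, secondary spermatocytes and spermatids were sorted with the DNA dye Hoechst from wild-type C57BL/6 mice 2 months and 21 days old, 1 library each. Enzymes were used to dissociate the testes of the sorted spermatogonia and of the wild-type replicates 1 and 2, and mechanical disruption for all others. By the study's sample list, the 3 sorted libraries after spermatogonia, wild-type replicates 1 and 3 and Mlh3 replicates 1 and 2 were sequenced on a MiSeq, and all others on a HiSeq, so that sorted spermatogonia differ from the other sorted libraries in platform, dissociation and age, and these cannot be told apart from the stage. The transcripts of Mlh3 and Cul4a were counted in their own mutants, at 26.2 to 86.5 CPM (UMIs scaled to the library's total) for Mlh3 and 49.1 to 54.5 CPM for Cul4a, against 10.7 to 72.9 and 5.60 to 45.7 CPM in wild-type. Where the deletions lie relative to the counted 3′ ends is not given in the sources used here, so the genotypes are those of the labels.

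The promoters of 3 members are shown because the results turn on them. Hnrnph1 and Hnrnph2 are close paralogs that bind runs of guanine. Hnrnph1 is on chromosome 11 and Hnrnph2 on the X chromosome, and their levels parted during meiosis. Hnrnpa2b1, which binds and sorts RNA and reads methylated adenosines, had the smallest p-value of the fall from pachytene-like to meiotic division-like cells, 2 classes described below. Each stretch covers 250 bases before and 50 bases after a RefSeq transcript start in GRCm38.p6, 5′ to 3′ on the gene's strand, for Hnrnph1 chr11:50376740-50377039 on the plus strand, for Hnrnph2 chrX:134600929-134601228 on the plus strand and for Hnrnpa2b1 chr6:51469845-51470144 on the minus strand. RefSeq gives further starts for Hnrnph1 and Hnrnpa2b1, and the first listed is shown. Capitals mark the CCAAT box, searched as CCAAT on both strands.
Hnrnph1: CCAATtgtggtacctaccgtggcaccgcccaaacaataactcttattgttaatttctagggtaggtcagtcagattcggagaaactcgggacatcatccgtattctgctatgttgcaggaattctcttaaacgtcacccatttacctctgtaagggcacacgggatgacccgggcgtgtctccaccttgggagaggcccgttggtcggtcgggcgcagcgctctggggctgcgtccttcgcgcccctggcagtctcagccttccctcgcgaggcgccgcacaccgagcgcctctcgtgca
Hnrnph2: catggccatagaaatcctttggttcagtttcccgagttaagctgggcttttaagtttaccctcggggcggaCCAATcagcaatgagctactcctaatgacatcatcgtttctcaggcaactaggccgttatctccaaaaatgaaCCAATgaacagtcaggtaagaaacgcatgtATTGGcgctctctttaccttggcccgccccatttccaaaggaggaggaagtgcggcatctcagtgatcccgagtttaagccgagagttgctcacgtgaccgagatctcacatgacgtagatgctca
Hnrnpa2b1: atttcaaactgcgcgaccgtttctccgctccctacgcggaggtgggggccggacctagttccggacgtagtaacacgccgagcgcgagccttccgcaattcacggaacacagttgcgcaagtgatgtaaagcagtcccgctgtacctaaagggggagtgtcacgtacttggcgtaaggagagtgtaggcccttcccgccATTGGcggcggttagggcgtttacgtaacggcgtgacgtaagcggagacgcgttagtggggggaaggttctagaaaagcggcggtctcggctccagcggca
Hnrnph2 held 3 CCAAT boxes in this stretch, Hnrnph1 and Hnrnpa2b1 1 each. RefSeq promoters were given for 29 of the 31 members, and 17 of these 29 had a CCAAT box, in 51.2% of their 41 stretches against 37.4% of all 32851 promoter stretches of this length. The TATA box (TATAAA, both strands) was in 9.76% of the members' stretches and 13.6% of all, and the cAMP response element (TGACGTCA, both strands) in none of the members' stretches and 1.79% of all. The members' stretches held a median of 31 CpG dinucleotides, from 7 to 52, and all stretches a median of 7.

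The members lie on 16 chromosomes, with 4 each on chromosomes 4, 11 and 17, and Hnrnph2 is the only member on the X chromosome. Counts at 3′ ends can be shared with copies and overlapping genes. For Hnrnpa3, 43.7% of the 50-base words in the last 400 bases of its coding transcripts also occur in 40 other genes, 37 of them pseudogenes, and for Hnrnpf 56.3% occur in 11 other genes, 7 of them pseudogenes. All such words of Srsf4 also occur in Gm12992, a gene of the opposite strand, and 80.6% of those of Srsf2 in Mettl23, also of the opposite strand. Of the words of Hnrnpab 32.7% occur in 3 other genes, with Phykpl of the opposite strand among them, and of those of Hnrnpk 31.5% in 2 pseudogenes. The words of Hnrnph1 were shared by 29.3% with Setd1b, those of Hnrnph2 by 12.9% with a pseudogene, and 14.7% of the exonic bases of Hnrnpm overlap March2 on the same strand. The values of Hnrnpa3, Hnrnpf, Srsf4, Srsf2, Hnrnpab, Hnrnpk and Hnrnph1 are therefore less certain than those of members such as Srsf3, Srsf6, Hnrnpl and Hnrnpu, whose words were shared with no other gene. Hnrnpm shared no such word, but its overlap on the same strand makes its values less certain too. The part of March2 in the counts of Hnrnpm was not tested.

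In the sorted cells most of the members that passed a floor on low values were lower in spermatids than in spermatogonia. Each sorted population was 1 library, so these differences have no replicate check, and fold changes were computed on CPM with 10 CPM added over genes with a mean of at least 50 CPM. Of the 31 members 26 passed this floor, 6 of them (Srsf4, Srsf9, Hnrnpdl, Hnrnpl, Hnrnpu and Hnrnpul2) through the spermatogonia, since their mean over the 3 later libraries was below 50 CPM, and such genes had to be lower on average in the later libraries. The sorted spermatogonia held 1168498 UMIs and the other sorted libraries 107117 to 262054, and the intervals below are exact Poisson 95% intervals that cover counting error only. Against spermatogonia, 14 of the 26 members were at least 2-fold lower in primary spermatocytes (24.9% of all 4190 genes), 21 in secondary spermatocytes (32.2%) and 22 in spermatids (36.2%). At least 2-fold higher were 3 members in primary spermatocytes (42.0% of all genes), 1 in secondary spermatocytes (42.0%) and 1 in spermatids (39.9%). With the floor set on the 3 later libraries alone, an alternative chosen after seeing the data, 20 members passed, of which 9, 15 and 16 were at least 2-fold lower in this order, against 393, 621 and 761 of all 3642 genes.

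Among the SR proteins, Srsf2 (SC35), an activator of exon inclusion found in nuclear speckles, was at 556 CPM (514 to 601) in spermatogonia, 149 CPM (85.4 to 243) in primary spermatocytes, 76.3 CPM (46.6 to 118) in secondary spermatocytes and 42.2 CPM (20.2 to 77.5) in spermatids. Srsf7, which also helps to export mRNA, stood at 543 CPM (502 to 587), 159 CPM (92.5 to 254), 45.8 CPM (23.7 to 80.0) and 54.8 CPM (29.2 to 93.7). Both were highest in spermatogonia, with intervals that did not meet those of any later population. Srsf9, which passed the floor through the spermatogonia and so had to be lower later on average, had 288 CPM (258 to 321) in spermatogonia and 8.43 CPM (1.02 to 30.5) in spermatids. Srsf3, Srsf4, Srsf5, Srsf10 and Srsf11 were less than 2-fold lower in primary spermatocytes. Srsf4, which passed the floor in the same way as Srsf9, had 85.6 CPM (69.6 to 104) in spermatogonia and 84.0 CPM (38.4 to 160) in primary spermatocytes, then 19.08 CPM (6.2 to 44.5) in secondary spermatocytes. Srsf11 had 496 CPM (456 to 538), 364 CPM (259 to 498) and 87.8 CPM (55.6 to 132). Srsf1, the founding SR protein, was hardly counted in any sorted library, with at most 9.34 CPM (0.236 to 52.0), and Srsf12 had at most 3.82 CPM (0.0966 to 21.3).

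The hnRNPs took several courses. Hnrnpdl went from 802 CPM (751 to 855) in spermatogonia to 84.0 CPM (38.4 to 160), 22.9 CPM (8.402 to 49.84) and 8.43 CPM (1.02 to 30.5). Hnrnpa2b1 went from 1676 CPM (1602 to 1752) to 822 CPM (659 to 1012) in primary spermatocytes and to 141 CPM (99.4 to 195) in secondary spermatocytes. Hnrnpm, which binds GU-rich RNA, kept 317 CPM (220 to 444) of its 513 CPM (472 to 555) in primary spermatocytes and had 19.08 CPM (6.2 to 44.5) in secondary spermatocytes. These 3 genes were thus all highest in spermatogonia and differed in the step at which the counts dropped. Hnrnpdl had passed the floor through the spermatogonia, so it had to be lower later on average. Hnrnph3 and Hnrnpll, a paralog of Hnrnpl that regulates splicing in lymphocytes, were highest in primary spermatocytes. Hnrnph3 went from 158 CPM (136 to 182) to 411 CPM (299 to 551) and stood at 42.2 CPM (20.2 to 77.5) in spermatids, and Hnrnpll from 74.5 CPM (59.6 to 91.8) to 177 CPM (107 to 277) and then 46.4 CPM (23.2 to 83.0). Hnrnpf, which binds runs of guanine, had 150 CPM (128 to 174) in spermatogonia and 298 CPM (235 to 372) in secondary spermatocytes, without a 2-fold difference at any stage. Hnrnpa3 was lowest in spermatogonia, at 23.1 CPM (15.2 to 33.6) against 345 CPM (243 to 476) in primary spermatocytes, and was the member at least 2-fold higher in secondary spermatocytes and spermatids. The library of sorted spermatogonia was also low in the ribosomal protein genes Rpl28 (17.1 CPM) and Rps27 (5.14 CPM), which were low in each of the other libraries low in Hnrnpa3, and the part of read assignment in this was not tested.

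**Figure D1:**
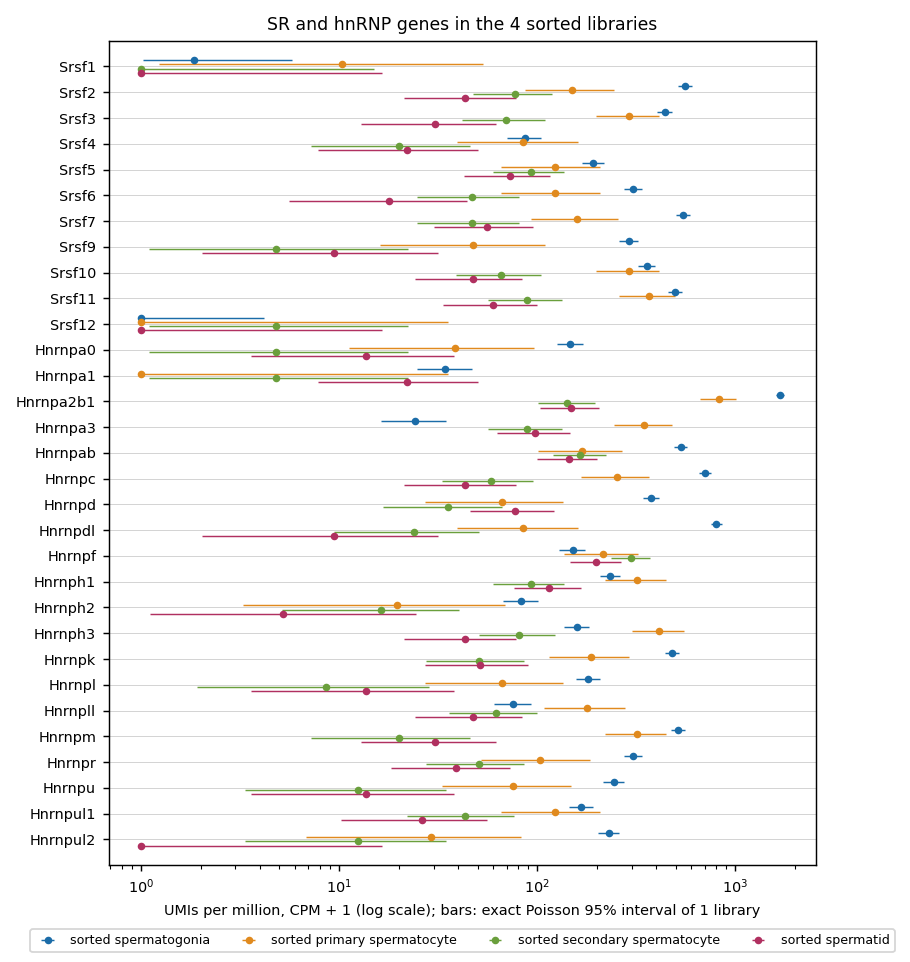
Level of each member in the 4 sorted libraries, as CPM + 1 on a log axis with exact Poisson 95% intervals. Spermatogonia (blue) lie to the right of spermatids (red) for most genes, and Hnrnpa3 runs the other way, from 23.1 CPM in spermatogonia, a library also low in Rpl28 and Rps27, to 345 CPM in primary spermatocytes.

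The sorted libraries did not each hold a single stage. When cells were clustered without the members and without the other splicing genes described here, 94.6% of the filtered cells of sorted spermatogonia fell into the spermatogonia-like class, but only 6.91% of the sorted primary spermatocytes were pachytene-like and 87.8% were in clusters without a name. Of the sorted secondary spermatocytes, 48.1% were elongating spermatid-like, 26.0% round spermatid-like and 3.90% meiotic division-like, and of the sorted spermatids 71.8% were elongating spermatid-like. The 8 Leydig cell markers summed to 2003 CPM in sorted secondary spermatocytes and to between 23.96 and 110 CPM in the other sorted libraries, and the 11 Sertoli cell markers to 1667 CPM in sorted spermatogonia and between 127 and 267 CPM in the others. The part of these cells in the levels above was not tested. The stages were therefore also compared within the wild-type whole testes.

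In the whole testes the members together took a smaller share of the UMIs at each later stage. In pachytene-like cells, the spermatocytes of mid prophase, the 31 genes made up 0.695 to 0.953% of the UMIs in the 9 wild-type libraries with at least 10 such cells. They made up 0.192 to 0.295% in the meiotic division-like cells, 0.147 to 0.212% in the round spermatid-like cells and 0.0806 to 0.109% in the elongating spermatid-like cells of all 11 libraries. The ranges of neighbouring classes did not overlap except between meiotic division-like and round spermatid-like cells. Mlh3 pachytene-like cells had 0.886 to 1.10%, those of Cul4a 0.714 to 0.804% and those of CNP 0.724 to 1.07%. Since UMIs of a class are summed, fewer transcripts of a gene per cell and fewer cells that hold it cannot be told apart. A share also falls where other genes take more of the UMIs. In wild-type the 10 most abundant genes held 3.93 to 6.72% in round and 11.9 to 16.6% in elongating spermatid-like cells. At that step the median log2 fold change was -0.34 for the members and -0.24 for all genes. These medians were -0.17 and 0.15 with another tool, DESeq2, -0.13 and -0.04 with relative log expression scaling, and -0.72 and -0.58 with total counts. Whether the fall in share was particular to the members was not tested.

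**Figure D2:**
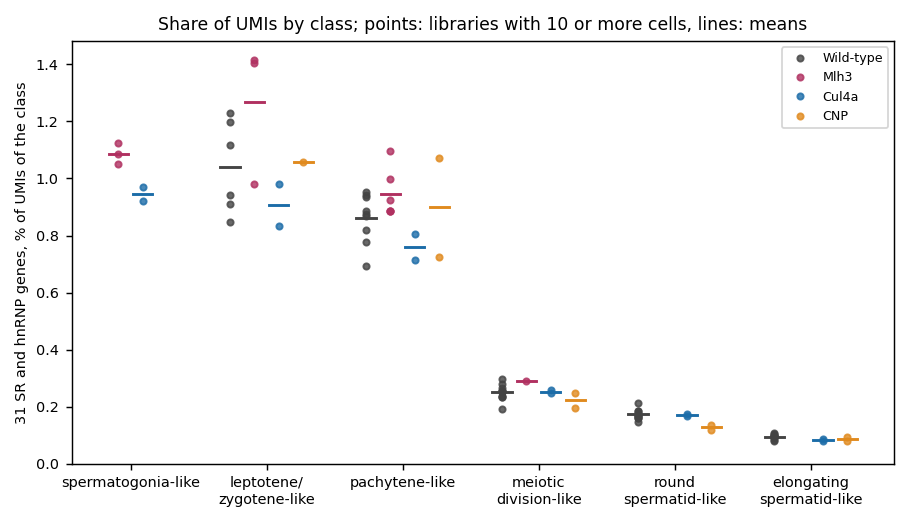
Percent of the UMIs of each class taken by the 31 members, each point a library with at least 10 cells of the class and a line at the mean of the group, for wild-type, Mlh3, Cul4a and CNP libraries. Wild-type points drop from 0.695 to 0.953% in pachytene-like cells to 0.0806 to 0.109% in elongating spermatid-like cells. A share also depends on how much the other genes of the class take.

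From pachytene-like to meiotic division-like cells, 24 of the 30 members tested fell and 3 rose (9 wild-type libraries, library as block). Of all 13339 genes tested, 19.5% fell and 30.2% rose. The median log2 fold change was -1.49 for the members and 0.34 for all genes. With relative log expression (RLE) scaling the median of all genes was 0.01 and that of the members -1.85, with 25 members lower and 1 higher, and the split over all genes moved from 4023 higher and 2607 lower to 2987 higher and 3458 lower. All 10 SR proteins tested fell, by 0.69 to 2.31 on the log2 scale, and 14 of the 20 hnRNPs. Srsf1 had too few counts to be tested. The pachytene-like class held 291 wild-type cells, 1.16% of those filtered, and 65.4% were in clusters without a name. At a coarser clustering of the cells of all 25 libraries, unnamed clusters of 928, 434 and 245 cells scored highest for pachytene markers. How many of these cells were wild-type is not given. The later class held 3459 to 6247 CPM of round spermatid markers, against 828.5 to 1273 CPM in pachytene-like cells. This step may therefore skip cells in between and cannot place the fall at the divisions themselves. Adjusted p-values come from the quasi-likelihood test of edgeR, adjusted by Benjamini-Hochberg over all genes tested. They set a change against a spread between libraries that the fit shares across genes. In the stage comparisons that spread was shared in full, so no p-value there measures a gene's own spread. The number of libraries that moved together is therefore given too. In the strain comparisons the shared spread counted as 86.2 degrees of freedom in pachytene-like cells and 13.9 over whole libraries, beside each gene's own.

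Hnrnpa2b1 ranged from 1281 to 2152 CPM (median 1778) in pachytene-like cells and from 138 to 275 CPM (median 200) in meiotic division-like cells, a log2 fold change of -2.77 ± 0.09 (SE, adjusted p = 1.72e-185). Hnrnpl, which binds CA-rich RNA and acts as enhancer or silencer of exons, ranged from 48.1 to 233 CPM (median 164) and then from 0 to 31.4 CPM (median 17.6), a log2 fold change of -2.79 ± 0.23 (adjusted p = 2.47e-33). Hnrnpm had 419 to 877 CPM (median 654) before and 0 to 111 CPM (median 99.8) after, a log2 fold change of -2.35 ± 0.12 (adjusted p = 1.15e-79). In all 3 genes every library was lower in the later class and the classes did not overlap. Hnrnpul2, a relative of Hnrnpu with a part in the DNA damage response, was at 0 to 117 CPM (median 67.3) and then 0 to 16.8 CPM (median 9.86), a log2 fold change of -2.37 ± 0.33 (adjusted p = 3.80e-12). Srsf6, an SR protein with paired RNA recognition motifs, was at 48.1 to 269 CPM (median 164) and then 0 to 41.9 CPM (median 23.4), a log2 fold change of -2.31 ± 0.22 (adjusted p = 7.41e-25). Hnrnph1 was at 288 to 553 CPM (median 427) and then 54.9 to 137 CPM (median 77.6), a log2 fold change of -2.10 ± 0.14 (adjusted p = 2.75e-51). These 3 were higher in the later class in 0 of 9 libraries, and of them only the ranges of Hnrnpul2 overlapped.

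The other members that fell included Srsf9 (-1.92 ± 0.27), Srsf12 (-1.75 ± 0.74), Srsf3 (-1.70 ± 0.15), Srsf5 (-1.69 ± 0.19), Srsf10 (-1.62 ± 0.16), Srsf11 (-1.62 ± 0.11), Srsf2 (-1.61 ± 0.15), Srsf7 (-1.0 ± 0.14) and Srsf4 (-0.69 ± 0.22), given as log2 fold changes with their SE. Srsf12 rested on 10 UMIs before and 8 after, and 3 of 9 libraries were higher in the later class. Among the hnRNPs, Hnrnpc, which binds runs of uridine and packages nascent transcripts, had a log2 fold change of -1.27 ± 0.15, Hnrnpk, which binds runs of cytosine, -0.82 ± 0.13, and Hnrnpu, a scaffold protein of nuclear RNA and chromatin, -0.77 ± 0.18. Hnrnpdl (-1.94 ± 0.18), Hnrnpa0 (-1.73 ± 0.28), Hnrnph3 (-1.36 ± 0.11), Hnrnpr (-0.98 ± 0.16), Hnrnpd (-0.72 ± 0.19) and Hnrnpa3 (-0.52 ± 0.14) also fell. Hnrnpf, Hnrnpll and Hnrnpul1 did not pass the test.

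Against this direction, Hnrnph2, Hnrnpab and Hnrnpa1 rose. Hnrnph2 had 0 UMIs among the 891244 of the pachytene-like cells in 9 libraries and 57 among 3422131 in the meiotic division-like cells, at 0 to 39.4 CPM (median 15.1). It was higher in 7 of 9 libraries, at least 4.95-fold over the 3 counts that a count of 0 allows over the group (adjusted p = 1.02e-06, the quasi-likelihood test of edgeR, Benjamini-Hochberg adjusted). Hnrnpab, which binds both RNA and single-stranded DNA, had 96.1 to 318 CPM (median 191) and then 165 to 268 CPM (median 204), a log2 fold change of 0.50 ± 0.14 (adjusted p = 0.00108). Hnrnpa1, which silences exons, had 0 to 48.1 CPM (median 8.33) and then 2.59 to 54.9 CPM (median 17.6), a log2 fold change of 1.47 ± 0.52 (adjusted p = 0.0123). The ranges of both overlapped, Hnrnpab was higher in 5 of 9 libraries and Hnrnpa1 in 7 of 9, and both calls were lost with DESeq2 (0.15 and 1.10) and with either other scaling (0.13 to 0.14 and 1.12 to 1.13). The call of Hnrnpa1 was also lost without wild-type replicate 8 or 10 (1.22 to 1.23) and at a coarser clustering (0.99).

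From meiotic division-like to round spermatid-like cells, 6 of the 30 members tested rose and 15 fell in 11 wild-type libraries, against 27.3% and 21.8% of all 15997 genes. The median log2 fold change was -0.44 for the members and 0.05 for all genes, and with total counts as the only scaling 4 rose and 20 fell, with medians of -0.84 and -0.30 and 3625 genes higher and 5326 lower in place of 4374 and 3485. The 6 that rose were Srsf5 from 35.1 to 110 CPM (median 46.3) to 41.8 to 170 CPM (median 75.3, log2 fold change 1.03 ± 0.16, adjusted p = 3.19e-10), Srsf6 from 0 to 41.9 CPM (median 16.7) to 18.9 to 49.4 CPM (median 30.9, log2 fold change 0.93 ± 0.21), Hnrnph1 (0.91 ± 0.14), Srsf2 (0.63 ± 0.14), Hnrnpf (0.63 ± 0.13) and Hnrnpab (0.41 ± 0.12). Srsf5 and Srsf6 were higher in 10 of 11 libraries although the ranges overlapped. Srsf5, Srsf6, Hnrnph1 and Srsf2 had fallen at the step before. With total counts Srsf2 was no longer called (0.23), nor was Hnrnpab (0.06). The call of Hnrnpab was also lost without wild-type replicate 4, 9 or 11 (0.07 to 0.19), without the library block (0.35), at a coarser clustering (0.18) and without the limit on mitochondrial ribosomal RNA (0.12).

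Those that fell were led by Hnrnpm, from 0 to 111 CPM (median 92.2) to 13.9 to 31.6 CPM (median 23.9), a log2 fold change of -1.56 ± 0.17 (adjusted p = 1.56e-18). Hnrnpk fell from 92.6 to 194 CPM (median 127) to 29.4 to 66.0 CPM (median 54.7), a log2 fold change of -0.98 ± 0.14 (adjusted p = 2.23e-11), and Hnrnpu from 54.9 to 109 CPM (median 72.3) to 9.26 to 44.8 CPM (median 33.6), a log2 fold change of -0.79 ± 0.17. For Hnrnpk and Hnrnpu the classes did not overlap, and for Hnrnpm 1 library of 11 was higher in the later class. Hnrnpul2 (-1.39 ± 0.44), Hnrnpl (-1.29 ± 0.33) and Srsf4 (-0.90 ± 0.21) were the other leading members that fell, with log2 fold changes on 16, 32 and 102 UMIs in the round spermatid-like cells. Srsf3, Srsf7, Srsf10, Hnrnpa2b1, Hnrnpc, Hnrnph3, Hnrnpll, Hnrnpr and Hnrnpul1 fell by 0.33 to 0.72 on the log2 scale.

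From round to elongating spermatid-like cells, 12 of the 31 members fell and 2 rose in 11 wild-type libraries, against 26.0% and 14.7% of all 15657 genes. The median was -0.34 for the members and -0.24 for all genes on the log2 scale. These counts depended on scaling: with total counts 22 fell and 1 rose at an all-gene median of -0.58, and with RLE scaling 10 fell and 3 rose at -0.04. Of the genes called, 36.1% were higher in the fit used here, 21.1% with total counts and 46.4% with RLE scaling. Srsf7 fell from 8.53 to 95.5 CPM (median 69.0) to 0 to 27.8 CPM (median 17.1), a log2 fold change of -1.56 ± 0.20 (adjusted p = 1.40e-14). Hnrnph1 fell from 104 to 144 CPM (median 123) to 17.7 to 59.3 CPM (median 34.9), a log2 fold change of -1.43 ± 0.15 (adjusted p = 5.65e-20), and Hnrnpf from 80.6 to 264 CPM (median 143) to 9.53 to 168 CPM (median 32.4), a log2 fold change of -1.21 ± 0.14. All 3 were lower in 11 of 11 libraries, and only for Hnrnph1 did the classes not overlap. Hnrnph2 (-1.36 ± 0.43), Srsf5 (-1.16 ± 0.17) and Hnrnpab (-0.83 ± 0.11) followed, and Srsf2, Srsf6, Hnrnpa3, Hnrnpk, Hnrnpll and Hnrnpu fell by 0.62 to 0.75 on the log2 scale. The call of Hnrnph2 was lost without wild-type replicate 8 (-1.0), at a coarser clustering (-0.95) and without the limit on mitochondrial ribosomal RNA (-0.83). Hnrnpm rose from 13.9 to 31.6 CPM (median 23.9) to 18.5 to 59.3 CPM (median 32.1), a log2 fold change of 0.91 ± 0.21 (adjusted p = 7.09e-05), higher in 9 of 11 libraries. Hnrnpa2b1 was called higher at 0.30 ± 0.12 (adjusted p = 0.0422), but its value was -0.09 with total counts, it was higher in 6 of 11 libraries, and the call was lost without wild-type replicate 10 (0.32) or without the library block (0.29).

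**Figure D3:**
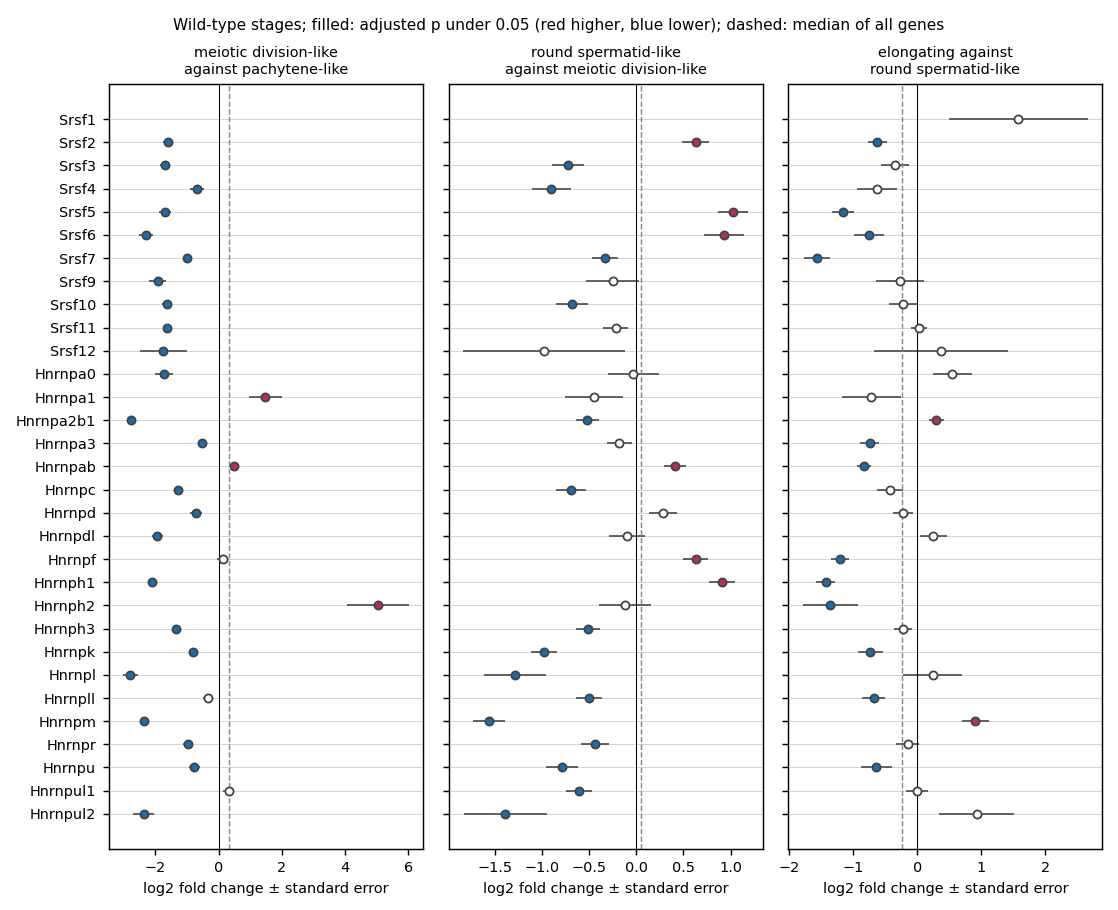
Log2 fold changes (± SE) of the members at the 3 wild-type steps, filled red where higher and blue where lower at an adjusted p under 0.05, with a dashed line at the median of all genes. At the first step 24 of 30 members lie to the left of 0 as called and Hnrnph2, at 0 UMIs in pachytene-like cells, lies far to the right at a fitted value that depends on the prior count.

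Hnrnph1 and Hnrnph2 thus ran differently through the same cells. Hnrnph1 was at a mean of 426 ± 81.6 CPM (SD, n = 9) in pachytene-like cells, 81.6 ± 28.4 CPM in meiotic division-like cells, 122 ± 13.3 CPM in round spermatid-like cells and 35.9 ± 11.9 CPM in elongating spermatid-like cells (n = 11 each). Hnrnph2 was at 0, 17.6 ± 12.2, 13.0 ± 7.70 and 3.06 ± 2.89 CPM in the same order. Hnrnph2 did not pass the test from meiotic division-like to round spermatid-like cells, with a log2 fold change of -0.12 ± 0.28. Before pachytene it was counted at 82.2 CPM (66.6 to 100) in sorted spermatogonia and at 44.1 CPM (5.34 to 159) in the 29 spermatogonia-like cells of wild-type testes, and in leptotene/zygotene-like cells at 0 to 34.1 CPM (median 0, 6 libraries). Over the 3 mutant groups, pachytene-like cells held 3 UMIs of Hnrnph2 among 4177594 in Mlh3, 2 among 2977547 in Cul4a and 0 among 74902 in CNP libraries. As background, the X chromosome is silenced in pachytene spermatocytes.

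**Figure D4:**
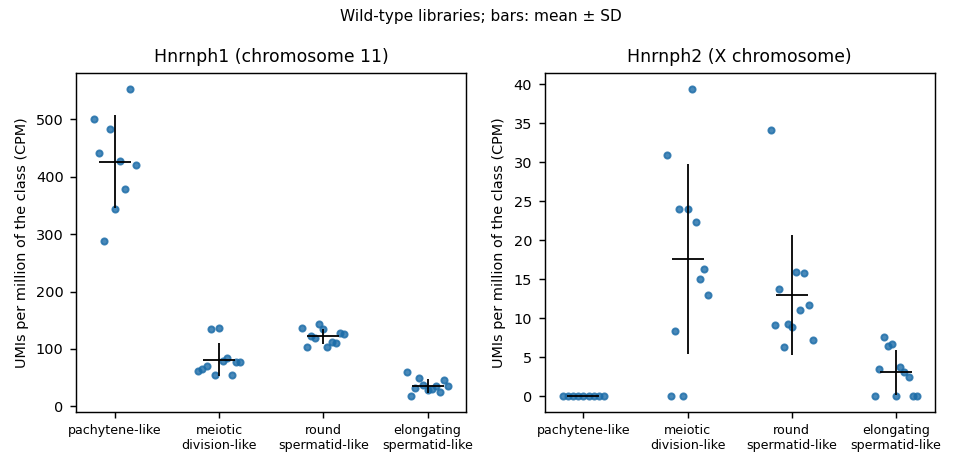
CPM of Hnrnph1 (chromosome 11) and Hnrnph2 (X chromosome) in 4 classes of wild-type cells, each point a library, with mean ± SD. Every pachytene-like point of Hnrnph2 lies at 0, while Hnrnph1 is highest there, at 288 to 553 CPM.

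Other genes of the splicing machinery were described at the same steps, and whether they differed from the members was not tested. Of 12 further hnRNP proteins, such as the poly(C) binding and polypyrimidine tract binding proteins, 6 fell and 0 rose from pachytene-like to meiotic division-like cells, with a median log2 fold change of -0.87. Of 14 tested SR-related proteins and SR kinases 8 fell and 2 rose (median -0.84), and of 22 core spliceosome genes 9 fell and 1 rose (median -0.48), where 19.5% of all genes fell, 30.2% rose and the median was 0.34. The SR-related list held Tra2a, Srrm2, Srek1, Rbm5 and Rbm25, which the study names in a mid pachytene component of these same data. The fall of that list after pachytene was therefore partly built into the choice of its genes. Pcbp1 fell by 2.43, and Snrpb, a core protein of the spliceosomal snRNPs, by 2.78 on the log2 scale. The kinase Clk3, which phosphorylates SR proteins, rose by 1.51. At the next step 14 of the 22 core spliceosome genes fell, among them Snrnp200 (-2.16 ± 0.20) and Sf3b1 (-1.70 ± 0.13), and 1 rose. Of the 12 further hnRNPs 5 fell and 3 rose, and of the 14 SR-related genes and kinases 7 fell and 2 rose. Of all genes 21.8% fell and 27.3% rose. Srpk2, a cytoplasmic kinase of SR proteins, rose there by 2.19 ± 0.11 and again in elongating spermatid-like cells by 1.24 ± 0.07, to a mean of 1347 ± 163 CPM (SD, n = 11). At that last step 2 core spliceosome genes rose and 7 fell, 2 SR-related genes rose and 5 fell, and 1 further hnRNP rose and 3 fell, where 26.0% of all genes fell and 14.7% rose, so that the shares that fell lay near that of all genes.

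Across strains, members were compared first within pachytene-like cells, the class with at least 2 libraries of 10 or more cells in each of the 4 genotypes. In Mlh3 against wild-type, 2 of 31 members were higher (4.52% of all 15268 genes) and none lower, with a median log2 fold change of 0.20 for the members and 0.22 for all genes. Hnrnpa0, which binds AU-rich mRNA, ranged from 80.7 to 221 CPM (median 165) in 6 Mlh3 libraries and from 19.05 to 142 CPM (median 60.4) in 9 wild-type libraries, a log2 fold change of 1.03 ± 0.25 (adjusted p = 0.00197). Hnrnpa3, a partner of Hnrnpa2b1 in RNA transport, ranged from 303 to 592 CPM (median 378) in Mlh3 and from 172 to 769 CPM (median 245) in wild-type, a log2 fold change of 0.61 ± 0.20 (adjusted p = 0.0300). The groups overlapped for both genes. The call of Hnrnpa0 was lost with at least 50 cells a library (0.56). That setting leaves out Mlh3 replicates 1, 2 and 3, with 23, 45 and 43 such cells. It also leaves out most of the 9 wild-type libraries, which held 11 to 51 each. The call of Hnrnpa3 was lost in 13 of the 19 fits that left out a library (0.47 to 0.59), and with total counts (0.54), the replicate block (0.43), at least 50 cells (0.84), a coarser clustering (0.55) and no limit on mitochondrial ribosomal RNA (0.58). Hnrnph1 did not pass the test (350 to 716 CPM against 288 to 553 CPM, log2 fold change 0.20 ± 0.19, adjusted p = 0.550). The Mlh3 pachytene-like cells differed in the markers of other cells. Their 8 Leydig cell markers summed to 103 to 2773 CPM against 0 to 57.7 CPM in wild-type, and their 11 Sertoli cell markers to 251 to 1970 CPM against 112 to 336 CPM. Their 15 elongating spermatid markers were lower, at 825 to 1130 CPM against 4548 to 11370 CPM. Their mitochondrial share was 1.25 to 5.71% against 0.702 to 1.24%. The part of these values in the 2 calls was not tested.

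Against Cul4a, which has the same background in the labels, 1 member was higher in Mlh3 pachytene-like cells (4.55% of all genes). It was again Hnrnpa3, at 183 and 239 CPM in the 2 libraries labelled Cul4a and at 303 CPM or more in every Mlh3 library, with no overlap (log2 fold change 0.78 ± 0.27, adjusted p = 0.0380). The 8 Leydig cell markers summed to 103 to 2773 CPM in these Mlh3 cells against 64.2 to 96.8 CPM in Cul4a, the 11 Sertoli cell markers to 251 to 1970 CPM against 204 to 234 CPM, and the 15 elongating spermatid markers to 825 to 1130 CPM against 6962 to 7580 CPM, at a mitochondrial share of 1.25 to 5.71% against 0.759 to 0.818%. The part of these values in the call was not tested. The call was lost in 11 of the 19 fits without a library (0.66 to 0.93), with the replicate block (0.88) and without the limit on mitochondrial ribosomal RNA (0.75). The count of members called ran from 0 under these last settings to 8 with at least 50 cells a library, 7 of them higher and 1 lower. Calls over all genes under these settings are not given. In libraries labelled Cul4a against wild-type, the quasi-likelihood test of edgeR, Benjamini-Hochberg adjusted, called no member in pachytene-like cells (0.681% of all genes, 1 member at an unadjusted p under 0.05 and 0 with DESeq2). Hnrnph1 was at 386 and 398 CPM in Cul4a, within the wild-type range of 288 to 553 CPM.

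In round spermatid-like cells, none of the 30 members tested was called between Cul4a and wild-type, where 10.5% of all 16682 genes were called (0 members at an unadjusted p under 0.05 and 0 with DESeq2). Hnrnph1 was at 112 and 132 CPM in Cul4a and at 104 to 144 CPM in wild-type, and Hnrnph2 at 11.7 and 14.4 CPM against 6.31 to 34.1 CPM. Of the Cul4a cells of this class 62.4% came from a cluster that held 0.228% of the wild-type ones. In elongating spermatid-like cells 2 of 31 members were higher (5.28% of all 15263 genes) and 1 lower (0.917%). Srsf6 was at 30.2 and 38.7 CPM in the libraries labelled Cul4a and at 0 to 28.0 CPM (median 14.1) in wild-type, above every wild-type library (log2 fold change 1.37 ± 0.32, adjusted p = 0.00851). Hnrnph1 was at 49.9 and 65.0 CPM against 17.7 to 59.3 CPM (median 34.9), a log2 fold change of 0.94 ± 0.24 (adjusted p = 0.0187), and Hnrnpr, a close relative of the RNA-binding protein Syncrip, at 13.7 and 14.3 CPM against 0 to 44.3 CPM (median 36.6), a log2 fold change of -1.06 ± 0.33 (adjusted p = 0.0478). The groups overlapped for the latter 2 genes. Hnrnph2 was not called, with 2 UMIs at 0.403 and 0.419 CPM against 0 to 7.61 CPM (median 3.18). All 3 calls were lost at a coarser clustering (0.89 for Srsf6, 0.51 for Hnrnph1 and -0.80 for Hnrnpr), without the limit on mitochondrial ribosomal RNA (0.79, 0.39 and -0.79), with the replicate block (1.11, 0.48 and -0.57), and without Cul4a replicate 2 (1.14 for Srsf6), which left 1 Cul4a library and took the spread from the other groups. The calls of Srsf6 and Hnrnph1 were also lost with DESeq2 (1.25 and 0.80), that of Hnrnph1 with RLE scaling (0.79), total counts (0.72) and without Cul4a replicate 1, and that of Hnrnpr in 12 of the 15 fits that left out a library (-1.1 to -0.98) and with no filter beyond 1 count (-1.03). A single cluster gave 53.4% of the Cul4a cells of this class and 1.17% of the wild-type cells. The Cul4a cells of this class had a mitochondrial share of 0.315 to 0.354% against 0.535 to 1.04% in wild-type. Their 15 elongating spermatid markers summed to 169300 to 170100 CPM against 118300 to 162400 CPM, and their 9 T lymphocyte markers to 109.9 to 143.8 CPM against 9.28 to 80.45 CPM. The part of the cluster split and of these values in the 3 calls was not tested. With total counts 1 member was higher and 2 lower, and 56.7% of the genes called were higher in place of 85.2%.

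The CNP libraries were shallow, with 23 and 36 pachytene-like cells. In these cells 1 of 31 members was called lower (0.367% of all genes). Hnrnpa3 had 0 UMIs among 74902 against 235 among 891244 in wild-type, where it ranged from 172 to 769 CPM, at least 6.58-fold lower over the 3 counts that a count of 0 allows (adjusted p = 0.000108). In round spermatid-like cells 2 of 30 were lower (0.581%). Hnrnpa3 had 2 UMIs at 5.04 and 6.20 CPM against 31.6 to 154 CPM (median 90.0) in wild-type, a ratio of 0.0601 with a counting interval of 0.00726 to 0.218 (adjusted p = 3.83e-05), and Hnrnpf had 31 and 55.4 CPM against 80.6 to 264 CPM (median 143), a log2 fold change of -1.76 ± 0.41 (adjusted p = 0.0118). Neither gene overlapped between the groups. Leaving out a CNP library leaves 1, with the spread taken from the other groups. Without CNP replicate 1 Hnrnpa3 was uncalled in both classes, at fitted log2 fold changes of -3.92 in round spermatid-like and -9.84 in pachytene-like cells, the latter dependent on the prior count, and Hnrnpf was uncalled without replicate 1 (-2.23) or replicate 2 (-1.45), with RLE scaling (-1.69), with edgeR's filter on low counts (-1.70) and without the limit on mitochondrial ribosomal RNA (-1.76). In elongating spermatid-like cells the quasi-likelihood test of edgeR, Benjamini-Hochberg adjusted, called no member (0.0393% of all genes, 1 member at an unadjusted p under 0.05 and 0 with DESeq2). Hnrnph1 did not pass the test in CNP in any class, with log2 fold changes of -1.0 ± 0.41, -1.23 ± 0.35 and 0.74 ± 0.53. Hnrnph2 was not called either, with 0, 3 and 0 UMIs in the 3 classes, at 6.20 and 10.1 CPM in the round spermatid-like cells.

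Over whole libraries, CNP testes again had less Hnrnpa3, at 9.03 and 3.79 CPM against 21.5 to 221 CPM (median 104) in wild-type (log2 fold change -4.35 ± 0.63, adjusted p = 0.000159), and no Hnrnpa1, with 0 UMIs among 1830350 against 233 among 26269391, at least 5.41-fold lower (adjusted p = 0.0142). These 2 of 31 members were lower where 0.462% of all 23386 genes were. No CNP library overlapped wild-type in either gene. Hnrnph2 was not called, at 2.84 and 5.16 CPM against 4.98 to 28.0 CPM (adjusted p = 0.474). With 1 CNP library left, the call of Hnrnpa1 was lost without either replicate and that of Hnrnpa3 without replicate 2 (-3.81). Hnrnpa3 was low in other libraries too. It was at 21.5 CPM in wild-type replicate 2 and at 88.0 CPM or more in the other 10 wild-type libraries, and at 23.1 CPM in sorted spermatogonia. The ribosomal protein genes Rpl28 and Rps27, chosen after their values were seen as the 2 genes with a mean above 100 CPM elsewhere and none in either CNP library, moved in the same libraries: Rpl28 stood at 8.94 CPM in wild-type replicate 2 and 17.1 CPM in sorted spermatogonia, and Rps27 at 0 and 5.14 CPM, where the other wild-type libraries had 57.04 to 173 CPM and 65.4 to 477 CPM. CNP libraries were dissociated mechanically and the other low libraries with enzymes, as was wild-type replicate 1, where Hnrnpa3 stood at 165 CPM. The part of read assignment in these values was not tested.

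**Figure D5:**
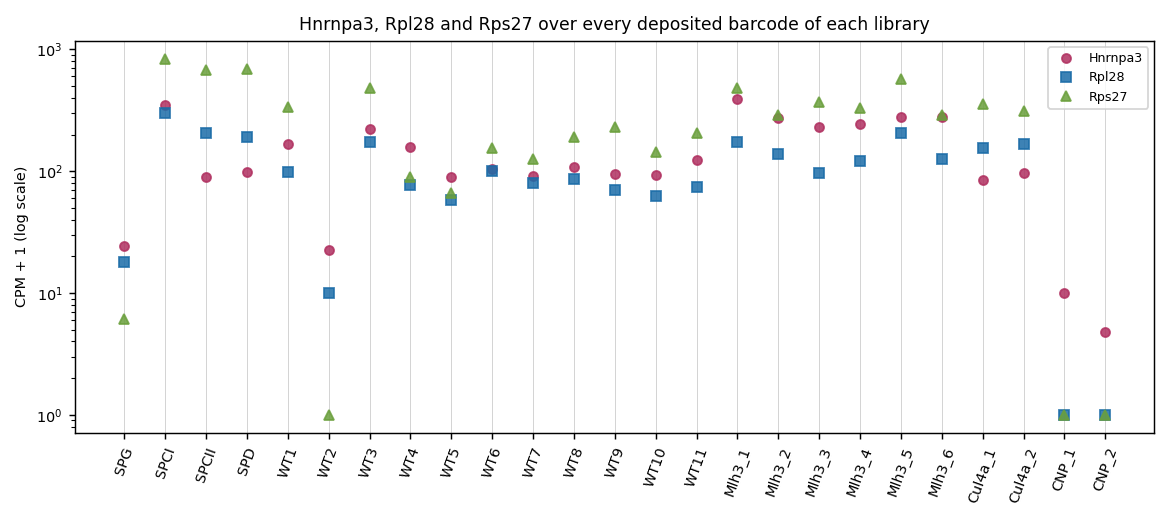
CPM + 1 on a log axis of Hnrnpa3, Rpl28 and Rps27 over all barcodes of each of the 25 libraries. All 3 genes are lowest in sorted spermatogonia, wild-type replicate 2 and the CNP libraries, with Hnrnpa3 at 3.79 to 23.1 CPM in these 4.

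Over whole libraries, Mlh3 testes had more of most members. Against 11 wild-type libraries, 23 of 31 members were higher (32.7% of all genes) and 1 lower (28.6%), with a median log2 fold change of 0.77 for the members and 0.16 for all genes. Total counts alone gave 1.32 and 0.62, with 26 higher and none lower and 66.3% of the genes called higher in place of 53.3%, and the libraries of mechanical dissociation alone gave 18 higher and 2 lower. For the latter the calls over all genes are not given. The cell classes of whole testis differed: 21.3% of the filtered cells were pachytene-like against 1.16% in wild-type (7.09% against 1.46% without the limit on mitochondrial ribosomal RNA, which left 2786 of 9606 Mlh3 cells), and 0 were round spermatid-like or elongating spermatid-like against 10.5% and 13.3%. Cells in clusters without a name were 21.3% against 65.4%. Leydig-like cells were 20.8% against 0.168%, and 8.22% without Mlh3 replicate 1, and Sertoli-like cells 6.03% against 0.447%, and 16.3% against 0.363% without the limit (9.38% in Mlh3 without replicate 4). A cluster led by the haemoglobin genes Hbb-bs, Hbb-bt, Hba-a1 and Hba-a2 held 24.1% against 0.463%, although some libraries with cells in it had no count of the 5 erythroid markers, which summed to 35.5 to 610.1 CPM in whole Mlh3 and 0 to 88.7 CPM in whole wild-type libraries. The 8 Leydig cell markers summed to 1611 to 10640 CPM in whole Mlh3 libraries against 5.60 to 414.5 CPM, and the 11 Sertoli cell markers to 1098 to 5602 CPM against 219 to 668 CPM. The part of these cells in the counts of members was not tested. Within pachytene-like cells, 2 of the members were higher, as given above.

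Hnrnpul2 ranged from 45.3 to 173 CPM (median 72.0) in 6 Mlh3 libraries and from 4.47 to 33.6 CPM (median 13.3) in 11 wild-type libraries, a log2 fold change of 2.08 ± 0.24 (adjusted p = 5.05e-09). Hnrnpl was at 88.5 to 293 CPM (median 102) against 5.60 to 38.0 CPM (median 29.1), a log2 fold change of 1.67 ± 0.21 (adjusted p = 2.64e-08), and Hnrnpm at 340 to 641 CPM (median 504) against 67.0 to 168 CPM (median 120), a log2 fold change of 1.49 ± 0.18 (adjusted p = 1.06e-08). In none of the 3 did the groups overlap. Hnrnpa0 (1.44 ± 0.24), Srsf9 (1.40 ± 0.15) and Hnrnpa2b1 (1.39 ± 0.17) followed, and Hnrnpa2b1 had 956 to 1198 CPM (median 1042) against 137 to 371 CPM (median 291). The other members that were higher, with log2 fold changes of 0.57 to 1.23, were Srsf2, Srsf3, Srsf4, Srsf5, Srsf6, Srsf10, Srsf11, Hnrnpa1, Hnrnpa3, Hnrnpc, Hnrnpd, Hnrnpdl, Hnrnph1, Hnrnph3, Hnrnpk, Hnrnpr and Hnrnpu, so that 8 of the 11 SR proteins and 15 of the 20 hnRNPs were higher. Hnrnpab was the member that was lower, at 142 to 301 CPM (median 154) against 109 to 252 CPM (median 181), a log2 fold change of -0.47 ± 0.18 (adjusted p = 0.0282) that was 0.04 with total counts. It lost its call without Mlh3 replicate 2 or 6 and with the replicate block (-0.41), and the groups overlapped. Hnrnph1 had 204 to 459 CPM (median 282) against 89.6 to 165 CPM (median 118) without overlap (0.78 ± 0.14, adjusted p = 2.39e-05), while Hnrnph2 did not pass the test, at 4.27 to 22.2 CPM (median 7.77) against 4.98 to 28.0 CPM (median 9.39) and a log2 fold change of -0.62 ± 0.33. Of the other splicing genes, beside the 32.7% of all genes that were higher and the 28.6% that were lower, 13 of 22 core spliceosome genes were higher and 1 lower, led by Prpf8 (1.94 ± 0.18), 10 of 14 SR-related genes and kinases higher and 4 lower, with Srrm1 at 1.72 ± 0.18 and Srpk2 at -1.57 ± 0.15, and 8 of 12 further hnRNPs higher and 2 lower. The SR-related list held genes that the study names in a mid pachytene component, as given above.

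Whole testes labelled Cul4a had no called member by the quasi-likelihood test of edgeR, Benjamini-Hochberg adjusted (2.06% of all genes, 5 members at an unadjusted p under 0.05 and 1 with DESeq2). Hnrnph1 was at 148 and 156 CPM there against 89.6 to 165 CPM in wild-type, and Hnrnph2 at 5.47 and 8.004 CPM against 4.98 to 28.0 CPM. Among the other splicing genes, Snrpb, U2af1, which reads the 3′ splice site, and Snrpd1 were higher in Cul4a, by 1.09 ± 0.26, 1.03 ± 0.26 and 0.83 ± 0.21 on the log2 scale.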

How the data were processed

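The authors made Drop-seq tables of UMI counts per gene and barcode from 3′ end reads, aligned with STAR 2.5.3a per the labels, and deposited 1 table for each of the 25 samples. The deposited counts are raw and unnormalized. The members and gene lists were chosen with earlier results of these data known. Cells with at least 200 UMIs and 50 genes were kept, and barcodes high in mitochondrial ribosomal RNA (mt-Rnr2) were removed, which left 36619 cells. These were clustered with leidenalg 0.10.2 on a graph of shared neighbours built with igraph 0.11.9 (19090 genes without the members and other splicing genes, 40 components, 20 neighbours, resolution 2) into 43 clusters. A cluster took the name of a class with the suffix -like from its markers, and 13 stayed unnamed. No doublet caller was run. Counts were summed per library and class with at least 10 cells, genes with at least 5 counts were kept, and edgeR 4.0.16 (R 4.3.3, trimmed mean scaling) tested them with its quasi-likelihood test and Benjamini-Hochberg adjustment, with a call at an adjusted p under 0.05. Each SE given is the absolute log2 fold change divided by the square root of the test's F statistic, not a separate estimate. Stage comparisons used the library as block. DESeq2 1.42.0, other scalings, filters, library subsets and clusterings were alternatives. Sorted populations, with 1 library each, had no test. Members called in a comparison are named, those with the largest changes (at most 6 a direction) with their values and the others by range, and Hnrnph1 and Hnrnph2 throughout. The fits were tested on simulated data. Counts of 72 pairs of libraries within a group differed by more than sampling noise, with a chi-square per degree of freedom of at least 1.94. Libraries of another mutant are not used here.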

Additional observations from a re-analysis of the deposited data

Results flagged for a closer look

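Of 123 groups of member values, 30 held a library far from the others. The cut-off flags about 1 in 20 groups of normal values with equal spread. Sparse counts from libraries of unequal depth are not such values, so no excess can be read from the 30. Some flags rest on very few counts: the wild-type pachytene-like cells held 2 UMIs of Srsf1. In the 6 whole Mlh3 libraries, replicate 1 stood high in Srsf3 (394.9 CPM, others 200.3 to 254.7), Hnrnpa3 (387.9 CPM) and Hnrnpf (372.8 CPM, others 62.6 to 139), replicate 2 in Srsf10 (417.1 CPM) and Hnrnpl (292.8 CPM), and replicate 3 was high in Hnrnpab (300.6 CPM) and low in Hnrnpll (85.17 CPM). Replicates 1 and 2 also stood apart in pachytene-like cells, replicate 1 in Srsf3 (645.8 CPM), Srsf12 (26.91 CPM), Hnrnpa3 (591.9 CPM) and Hnrnpf (529.2 CPM) and replicate 2 in Hnrnpl (403.5 CPM) and Hnrnpul2 (182.7 CPM).

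In wild-type pachytene-like cells, replicate 3 was high in Srsf1 and Hnrnpa1 (48.05 CPM each), Hnrnpa3 (768.9 CPM, others 171.6 to 336.6) and Hnrnpu (432.5 CPM), and replicate 5 in Hnrnpk (571.5 CPM) and Hnrnpul1 (247.6 CPM). In wild-type meiotic division-like cells replicate 3 had 0 CPM of Srsf2, Hnrnpdl, Hnrnpm and Hnrnpul1 and was high in Srsf5 (109.8 CPM), Srsf10 (164.7 CPM), Hnrnpa1 (54.91 CPM), Hnrnpa3 (439.2 CPM) and Hnrnpc (274.5 CPM). Among the 9 libraries compared, replicate 5 was the only library with Srsf1 (3.286 CPM), and replicate 4 was high in Hnrnph1 (136.5 CPM). Wild-type replicate 3 held 11 pachytene-like cells with 20810 UMIs and 12 meiotic division-like cells with 18213 UMIs, the fewest in each class among the wild-type libraries with at least 10 such cells. Mlh3 replicates 1 and 2 and wild-type replicate 3 were sequenced on a MiSeq, as was wild-type replicate 1, and the other 4 Mlh3 and 9 wild-type libraries on a HiSeq.

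Hnrnpa3 differed between Mlh3 and Cul4a in pachytene-like cells by 0.78 on the log2 scale.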

How the results depend on the processing

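Of 1146 values of named members under alternatives, 1048 kept direction and call, 96 lost the call and 2 reversed, both with total counts only: Hnrnpab in whole Mlh3 libraries (0.04) and Hnrnpa2b1 from round to elongating spermatid-like cells (-0.09). The cause was not tested. Of 422 counts of members called or past the fold, 353 stayed within 1.5 times. Where no count over all genes stands beside them, such counts cannot tell a change in the members from one in all genes. The floor on the later sorted libraries alone, chosen after seeing the data, gave 9 members lower in sorted primary spermatocytes. Requiring a log2 fold change of at least 1 left 1 member in Mlh3 against wild-type pachytene-like cells, 0 against Cul4a, 11 in whole Mlh3 libraries, 4 from meiotic division-like to round spermatid-like cells and 5 at the last step. Without this requirement, the last step had 14 members called in the fit used here and 23 with total counts.

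For Mlh3 against wild-type pachytene-like cells, total counts, resolution 1 and no mt-Rnr2 limit gave 1 member each, at least 50 cells 0, and platform as covariate or mechanical HiSeq libraries only 4. Against Cul4a, DESeq2 gave 2, total counts and platform 3, the edgeR filter and mechanical HiSeq libraries 4, at least 50 cells 8 and no mt-Rnr2 limit 0. In round spermatid-like cells, resolution 1 gave 1 for Cul4a, and RLE scaling, the edgeR filter and no mt-Rnr2 limit 1 for CNP. In elongating spermatid-like Cul4a cells DESeq2 gave 1, mechanical or mechanical HiSeq libraries 5, and resolution 1 or no mt-Rnr2 limit 0. In whole libraries DESeq2 gave 1 for Cul4a and 4 for CNP, and mechanical HiSeq libraries 1 for Cul4a.

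With a library left out, the count ranged from 1 to 4 for Mlh3 pachytene-like cells, 0 to 3 against Cul4a, 0 to 1 for CNP (0 without CNP replicate 1) and 0 to 0 for Cul4a. It ranged from 0 to 0 for round spermatid-like Cul4a cells, 0 to 2 for CNP (0 without replicate 1), 0 to 4 for elongating spermatid-like Cul4a cells (0 without replicate 2) and 0 to 0 for CNP. Whole libraries gave 19 to 25 for Mlh3, 0 to 1 for Cul4a (1 without wild-type replicate 1) and 0 to 2 for CNP (0 without replicate 2). The stage counts ranged from 26 to 28, 20 to 23 and 11 to 16.

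Libraries sharing a replicate number correlated in their deviations from the group mean at -0.355 to 0.326 over 16 pairs, the others at -0.411 to 0.417. In Cul4a and in CNP the deviations of the 2 libraries mirror each other, so these ranges cannot decide whether the numbers pair the samples. With the replicate block, 25 members were called in whole Mlh3 libraries, 7 in whole CNP libraries, 1 in round and 0 in elongating spermatid-like Cul4a cells and 0 for Mlh3 against Cul4a. The calls over all genes with this block are not given, so these counts cannot be read as particular to the members. At least 50 cells was not run for meiotic division-like against pachytene-like cells or for CNP pachytene-like cells. The pachytene-like cells of the 2 CNP libraries held 21337 and 53565 UMIs, and the part of depth and of the number of libraries in the CNP counts was not tested.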
